A study of Mus musculus with 23 samples.

Results

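Choroid plexus epithelial cells were picked out of single-cell RNA counts of mouse brain, sorted by how much fluorescent antibody each cell carried 24 hours after an intravenous dose. A barcode was kept if it had at least 500 genes and 800 unique molecular identifiers (UMIs, one per captured RNA molecule) and at most 10% mitochondrial UMIs. It was taken as a choroid plexus epithelial cell if at least 4 of 8 genes (Folr1, Kl, Htr2c, Sostdc1, Calml4, Prlr, 2900040C04Rik and Ecrg4) had a UMI and if the summed UMIs of those 8 exceeded those of 7 genes of other cell types (Cldn5, Flt1, Aqp4, Gja1, Cx3cr1, P2ry12 and Mog). By this rule 4583 of 249715 filtered barcodes (1.84%) were choroid plexus epithelial cells. There were 1356 of 118486 in ATV-TfR mice, 1772 of 110206 in ATV-CD98hc mice and 1455 of 21023 in control IgG mice. The 15 genes of the rule are therefore named without tests. Counts over all genes include those of the 15 that passed (13 in the high against the negative bin of ATV-TfR mice, 11 in ATV-CD98hc mice and 7 in control IgG mice), while counts over lists and gene classes leave them out.

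The study followed AF647-conjugated antibodies at 45 mg/kg, given by the tail vein. ATV-TfR, an Fc-engineered antibody that binds the transferrin receptor, went to TfR mu/hu KI mice. ATV-CD98hc, which binds the heavy chain of the CD98 amino acid transporter, went to CD98hc mu/hu KI mice, and control IgG went to C57BL/6J mice, so that treatment and mouse strain cannot be told apart. The labels give an age of 3.3 months, the design text 12 weeks. Mice were perfused with PBS, olfactory bulbs, cerebellum, pons and medulla were cut away, and the remaining brain was dissociated enzymatically in the presence of transcription and translation inhibitors. After myelin removal, live cells were sorted into negative, low, medium and high AF647 bins. The edges of the 3 positive bins split the positive cells of ATV-TfR mice into tertiles and were then used for all mice. Each library pooled 1 male and 1 female mouse, and each treatment had 2 such pools (replicates 1 and 2), whose 4 bins came from the same animals. The negative bin of control IgG was analysed for replicate 2 only, which gave 23 libraries in 12 groups. With 2 pools per treatment, p-values of gene tests on group means or pool sums measure the spread between pools. Tests that permute labels over libraries, and straight slopes over the bins, also take in spread between bins.

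The choroid plexus is a frond of tissue in the brain ventricles. Its epithelium secretes cerebrospinal fluid by moving sodium, chloride, bicarbonate and water from blood to ventricle, makes transthyretin and other secreted proteins, and carries vitamins and hormones into the fluid. Unlike most brain vessels, its capillaries are fenestrated, so blood proteins reach the basal face of the epithelium, where tight junctions between epithelial cells form the blood-cerebrospinal fluid barrier.

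The markers matched the name. Transthyretin (Ttr), the thyroid hormone carrier that the epithelium secretes, was left out of the rule because its RNA spills into other droplets. It had a UMI in 99.8% of the chosen cells, with a median of 1245 UMIs per cell at a median depth of 8196 UMIs. Ttr took 132930 to 258001 CPM (counts of a gene scaled to the same total of UMIs in every library) of the chosen cells, against 94.6 to 1180 CPM in endothelial cells and 99.3 to 438 CPM in astrocytes picked by rules of the same kind. Ependymal cells, which line the ventricle wall, held 57.1 to 301 CPM of Ttr but shared the rule genes. The 8 rule genes summed to 1198 to 2174 CPM there, against at most 65.0 CPM in endothelial cells, astrocytes and microglia. Of endothelial barcodes, at a median depth of 3474.5 UMIs, 35.3% to 78.2% per library also had a Ttr UMI, which was taken as the background of free RNA in these droplets. All 8 rule genes had a UMI in 2399 cells (52.3%), while 160 cells stood just inside the rule with 4 genes, at a median of 158.5 Ttr UMIs and 3291 UMIs in all. Just outside it, 258 barcodes with 3 genes had a median of 1 Ttr UMI at 6619.5 UMIs, and 216 barcodes with 4 or more genes failed on the genes of other cell types, with a median of 323.5 Ttr UMIs. Ecrg4, a secreted peptide precursor, was the most often seen rule gene (99.1% of cells), and Htr2c, the serotonin 2C receptor, the least often seen (67.8%). Lrp2, a large endocytic receptor, had a UMI in 0.327% of cells.

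Libraries held 1861238 to 90307818 UMIs and 526 to 20570 filtered barcodes. The chosen cells numbered 28 to 545 per library and carried 310278 to 4293269 UMIs per library. The smallest library was control IgG high replicate 1 (28 cells), followed by ATV-CD98hc negative replicate 2 (41 cells). Among the chosen cells 1 barcode sequence occurred in more than 1 library, and 176 (3.84%) were marked as doublets and kept. None of the marked cells lay in the high libraries of ATV-TfR mice (48 and 52 cells) or ATV-CD98hc mice (115 and 104 cells). Leaving out marked doublets therefore did not change those libraries. Scrublet's own threshold failed in all of them, and the 94th percentile of its scores was used instead. That marked 5.22% and 5.49% of filtered barcodes in the ATV-TfR and 5.43% and 5.28% in the ATV-CD98hc high libraries. The lack of marks does not show that the chosen cells there were free of doublets.

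Htr2c, Kl (Klotho, a co-receptor for fibroblast growth factor 23) and Calml4 (a calmodulin-like protein) mark the same cells but ran in different directions along the AF647 bins, as given further on, so their promoters are shown first. Each is the 250 bases directly before the transcript start in RefSeq (GRCm38.p6), outside the transcribed exons. They lie at chrX:146962263-146962512, chr5:150952357-150952606 and chr9:62857854-62858103, all on the plus strand. Capitals mark GGGCGG, the GC box, or its reverse complement.
Htr2c: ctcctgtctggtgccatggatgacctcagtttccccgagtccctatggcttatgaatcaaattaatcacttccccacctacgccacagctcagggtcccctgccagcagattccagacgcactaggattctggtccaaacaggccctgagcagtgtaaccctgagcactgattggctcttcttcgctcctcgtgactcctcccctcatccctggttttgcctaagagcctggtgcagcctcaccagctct
Kl: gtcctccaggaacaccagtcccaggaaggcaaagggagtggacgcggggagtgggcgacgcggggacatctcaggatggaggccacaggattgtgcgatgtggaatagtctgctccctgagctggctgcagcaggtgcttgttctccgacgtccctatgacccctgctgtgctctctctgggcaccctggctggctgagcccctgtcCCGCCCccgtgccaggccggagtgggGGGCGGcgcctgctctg
Calml4: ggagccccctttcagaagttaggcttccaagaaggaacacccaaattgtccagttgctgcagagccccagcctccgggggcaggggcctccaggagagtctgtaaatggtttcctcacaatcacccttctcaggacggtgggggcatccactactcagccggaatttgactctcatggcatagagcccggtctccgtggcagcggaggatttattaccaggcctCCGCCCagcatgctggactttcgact
The Kl window was the richest in G and C (66.8%, 13 CpG) and held the GC box 2 times, the Calml4 window held it once (57.6%, 8 CpG), and the Htr2c window did not hold it (55.6%, 5 CpG). Over 32817 mouse promoters of the same length the median was 52.4% G and C with 6 CpG, and 32.7% held GGGCGG on either strand. Other motifs searched on both strands were in none of the 3 windows. These were TAATCC (in 6.25% of all promoters), which OTX factors bind, GTTGCC (in 10.4%), part of the RFX site, TATAAA (in 12.4%), the TATA box, and CACGTG (in 6.02%), an E-box. A match in these letters is a description and no evidence of binding. Of the 8 rule genes, 6 matched the promoter table.

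In ATV-TfR mice, choroid plexus epithelial cells became rarer among the sorted cells as AF647 rose. They made up 1.94% and 1.89% of filtered barcodes in the negative libraries (replicates 1 and 2), 2.10% and 1.61% in the low, 0.942% and 1.13% in the medium, and 0.246% and 0.295% in the high libraries. Both high libraries lay below all 6 others, and the mean share was 7.08-fold lower in the high than in the negative bin. On the logit scale the share changed by -0.65 per bin (exact permutation of bin labels, two-sided p = 0.00238, adjusted over 3 treatments 0.00714).

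In ATV-CD98hc mice the shares lay closer together over the bins. They were 2.14% and 1.18% in the negative, 3.02% and 1.28% in the low, 2.00% and 1.05% in the medium, and 1.10% and 0.778% in the high libraries. Replicate 1 was above replicate 2 in every bin, and within each replicate the high library was the lowest. The negative and high groups did not overlap, the mean being 1.77-fold lower in the high bin, but the slope of -0.20 did not pass the test (exact permutation, adjusted p = 0.286). Each pool sloped down, by -0.24 and -0.15. With bin labels permuted within each pool, a test added after the data had been seen, the adjusted p was 0.0833 (exact permutation; 0.0208 in ATV-TfR mice). The slope in ATV-TfR mice minus that in ATV-CD98hc mice was -0.45 (exact permutation of treatment labels within bins, p = 0.0772). Labels were permuted in each bin on its own, so the bins of a pool counted as separate units although they share their animals.

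Under control IgG the order was another. The cells were 1.29% of the one negative library, 17.3% and 11.2% of the low, 25.9% and 24.1% of the medium, and 5.32% and 10.8% of the high libraries. The 6 positive libraries all lay above the negative one, with the peak in the medium bin, where the mean share (24.98%) was 19.4-fold that of the negative library. The straight slope was 0.40 per bin (exact permutation, adjusted p = 0.383), -0.65 over the 3 bins of replicate 1 and 0.76 over the 4 of replicate 2. In numbers, the medium libraries gave 178 and 193 choroid plexus epithelial cells, against 151 and 175 in the medium libraries of ATV-TfR mice. Filtered barcodes in these bins numbered 1489 under control IgG and 31478 in ATV-TfR mice. The number of cells sorted per library was not taken into account, so these counts do not compare how many cells reached the bin.

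**Figure D1:**
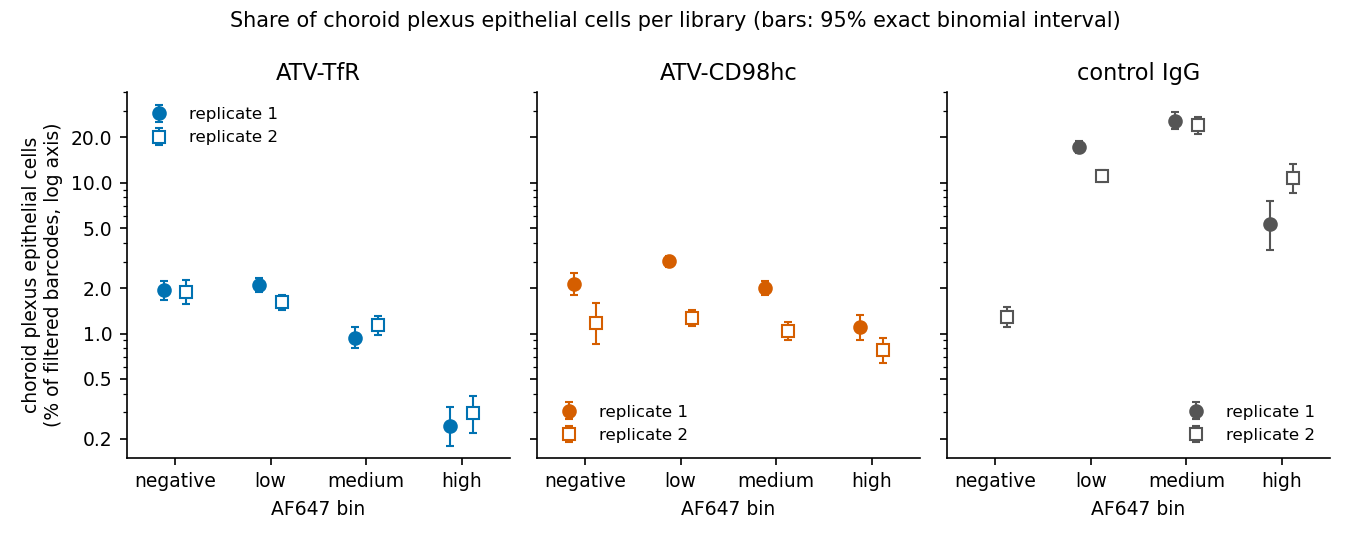
Share of choroid plexus epithelial cells in each library (percent of filtered barcodes, log axis) by AF647 bin, 1 panel per treatment, filled and open symbols for replicates 1 and 2, with bars for the 95% exact binomial interval, which covers counting error only. Within each replicate the high bin is the lowest in both ATV treatments, at 0.246% and 0.295% in ATV-TfR mice, while in control IgG mice the medium bin is the highest at 25.9% and 24.1%.

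Endothelial cells filled the high bins of the ATV mice, and their part in these shares was not tested. The medium bins of ATV-CD98hc mice held 15427 and 17948 of them in 38360 filtered barcodes, with a mean choroid plexus share of 1.52%. Those of ATV-TfR mice held 3059 and 2777 in 31478, with a mean share of 1.04%. In the negative bins the mean shares were 1.66% and 1.91% in the same order. Endothelial cells were 1.58% and 1.35% of the negative and 94.6% and 95.8% of the high libraries in ATV-TfR mice, and 1.41% and 1.93% against 93.4% and 95.04% in ATV-CD98hc mice. In control IgG mice they were 24.8% of the negative, 49.3% and 63.1% of the low, 4.36% and 6.24% of the medium and 2.09% and 1.93% of the high libraries. Counted among the cells that were not endothelial, the choroid plexus share ran the other way, with a slope of 0.30 in ATV-TfR mice (exact permutation, adjusted p = 0.245) and 0.91 in ATV-CD98hc mice (adjusted p = 0.00952). On that base the slopes of the ATV treatments differed by -0.61 (exact permutation, p = 0.0216), in a test that again counts the bins of a pool as separate units.

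Set against ependymal cells, the ciliated neighbours that line the ventricle wall, choroid plexus epithelial cells became relatively more frequent in the brighter bins. A barcode that met the choroid plexus rule was not counted as ependymal, so the counts of the ratio are not independent. Ependymal cells also hold rule genes, and how many of them met the choroid plexus rule was not tested. ATV-TfR mice had 108 and 96 ependymal cells in the negative and 0 in both high libraries, where 48 and 52 choroid plexus epithelial cells were counted. ATV-CD98hc mice had 32 and 33 in the negative and 8 and 1 in the high libraries, beside 115 and 104 choroid plexus epithelial cells. The log2 ratio of choroid plexus to ependymal cells (0.5 added to each count) rose by 1.93 per bin in ATV-TfR mice (exact permutation, adjusted p = 0.00238, from the smallest p that 2520 arrangements can give) and by 1.12 in ATV-CD98hc mice (adjusted p = 0.0405). The latter did not pass with bin labels permuted within each pool (exact permutation, adjusted p = 0.0729), and the former did (adjusted p = 0.0104). In control IgG mice the slope was 1.16 and did not pass (exact permutation, adjusted p = 0.148), with 76 ependymal cells in the negative and 1 and 0 in the high libraries. From 1 pool alone the ATV-CD98hc slope was 0.48 without replicate 2 and 1.77 without replicate 1, and 1 pool cannot give an exact permutation p below 0.0833. The control IgG slope was -0.95 without replicate 2.

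The cells found in brighter bins also carried more RNA molecules. Their median depth in ATV-TfR mice was 6958 and 6152.5 UMIs per cell in the negative, 8360 and 9057 in the low, 10024 and 10737 in the medium, and 15403.5 and 17892.5 in the high libraries. For ATV-CD98hc mice it was 5364 and 6606, then 7106 and 5539, then 9471 and 6915, and 13461 and 15294.5 in the high libraries. Under control IgG the values were 6534 in the negative, 8607 and 7076 in the low, 9582 and 7930 in the medium, and 11242 and 9170 in the high libraries. In all 3 treatments the high libraries lay above the negative ones without overlap, the mean ratio being 2.54, 2.40 and 1.56 in that order. The slope of log2 depth was 0.43, 0.42 and 0.20 per bin (exact permutation, adjusted p = 0.00238, 0.00595 and 0.0206), in a test added after the depths had been seen. Over all filtered barcodes the slopes were -0.05, -0.01 and -0.29 (exact permutation, adjusted p = 0.137, 0.837 and 0.137). The UMIs of the 8 rule genes per cell were 4.69-, 4.63- and 1.84-fold higher in the high than in the negative bin. Cells with all 8 rule genes had a median of 10612 UMIs and cells with 4 had 3291. The rule asks for several genes with a UMI and for more rule UMIs than UMIs of other cell types, so passing it depends on depth. Endothelial marker UMIs per chosen cell (mean of library medians) were 0 in the negative bins of both ATV treatments. In the high bins they were 5 (ATV-TfR) and 3 (ATV-CD98hc). The part of depth in the share per bin was not tested, nor was the part of the rule in the rise of depth and rule UMIs.

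**Figure D2:**
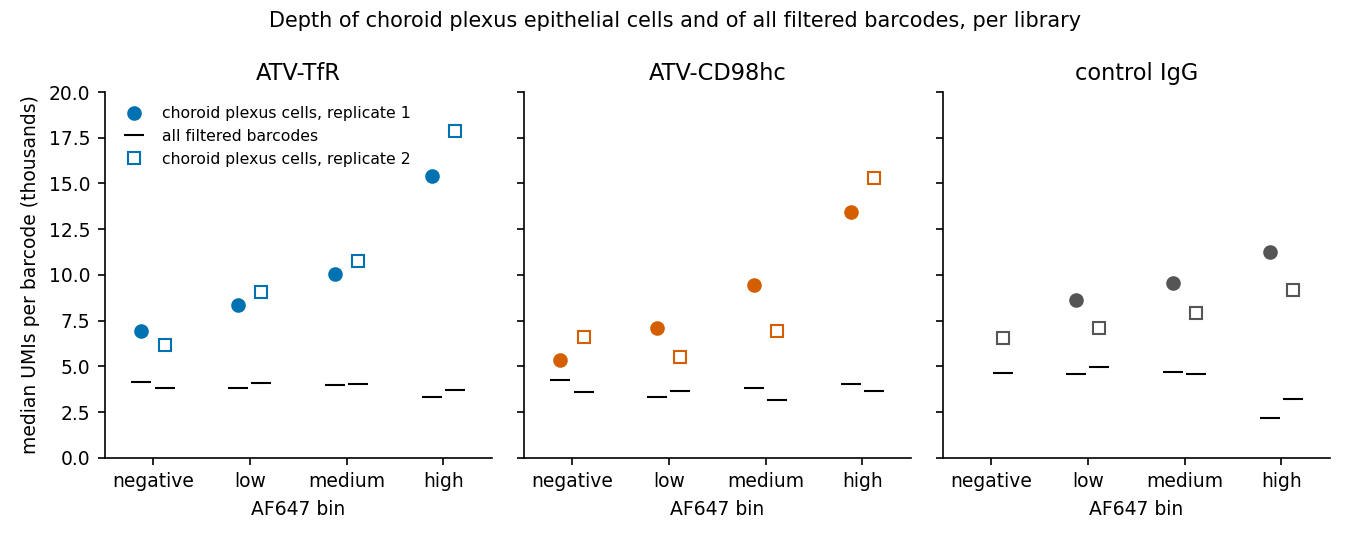
Median UMIs per barcode (axis in units of 1000) of choroid plexus epithelial cells (circles and squares, filled and open for replicates 1 and 2) and of all filtered barcodes of the same library (black dashes), by AF647 bin and treatment. The choroid plexus cells climb to 15403.5 and 17892.5 UMIs in the high libraries of ATV-TfR mice, while the dashes show no such climb.

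The high and negative bins were then compared gene by gene, on UMIs summed over the chosen cells of each library (edgeR's quasi-likelihood test across 12856 genes, Benjamini-Hochberg adjusted p below 0.05). In ATV-TfR mice 21.2% of genes were called, 1433 (11.1%) as higher in the high bin and 1298 (10.1%) as lower. In ATV-CD98hc mice 31.6% were called, 2096 (16.3%) as higher and 1965 (15.3%) as lower, and under control IgG 8.01%, 437 (3.4%) as higher and 593 (4.61%) as lower. DESeq2, which scales libraries otherwise, split the ATV-CD98hc genes as 1195 higher and 1855 lower and the ATV-TfR genes as 867 higher and 1046 lower, so that falls outnumbered rises in both. In ATV-TfR mice 722 genes were called without ATV-TfR replicate 1 and 1036 without replicate 2. In ATV-CD98hc mice 1709 were called without ATV-CD98hc replicate 1 and 2614 without replicate 2, and in control IgG mice 677 without control IgG replicate 1. The lone negative library of control IgG was assumed to vary between pools like the other groups. Levels below are CPM per library and fold changes are log2 values from the fit with their standard error (SE).

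Genes that endothelial cells express at higher levels led the rises by size in the ATV mice. Of 462 genes at least 5 times higher in endothelial cells than in astrocytes and microglia and higher there than in the chosen cells, a class drawn up after the data had been seen, 208 rose and 8 fell in ATV-TfR mice, 263 rose and 7 fell in ATV-CD98hc mice, and 16 rose and 44 fell under control IgG. Beside these, 11.1%, 16.3% and 3.4% of all genes rose and 10.1%, 15.3% and 4.61% fell. The 16 rises under control IgG lay near that background. Whether the RNA of these endothelial genes was made in the chosen cells or carried over from others was not tested. The 8 genes with the largest called rise in ATV-TfR mice were Ly6c1, Ptprb, Ly6a, Spock2, Cxcl12, Klf2, Ramp2 and Egfl7, all of this class. Ly6c1 had 149 and 107 CPM in the high libraries and no UMI in the negative ones, at least 108-fold higher (bound from 3 counts over the group), and Ptprb at least 58.7-fold. In ATV-CD98hc mice the 8 were Ly6c1, Ly6a, Ptprb, Klf2, Cxcl12, Spock2, Egfl7 and Itm2a, with Ly6c1 at least 74.8-fold, Ly6a at least 71.5-fold and Ptprb at least 45.0-fold higher. The leading rises under control IgG were others and included Cdh18, Grm8, Fras1, Ror1 and Frmpd4, of which Cdh18, Fras1 and Frmpd4 are described further on. The 8 endothelial markers summed to 68.2 and 74.8 CPM in the negative and 1227 and 1042 CPM in the high libraries of ATV-TfR mice. For ATV-CD98hc mice they summed to 62.9 and 49.4 CPM against 1690 and 1577 CPM. Under control IgG the order was reversed, with 440 CPM in the negative library and 83.8 and 120 CPM in the high ones, where Cldn5, Flt1, Ly6c1, Abcb1a and Ptprb were at 0 in both. Of the 6 endothelial markers outside the rule, 6 rose in each ATV treatment and 3 fell under control IgG. Cells with at most 2 endothelial marker UMIs made up 92.5% and 93.7% of the negative and 39.6% and 28.8% of the high libraries of ATV-TfR mice, and 94.4% and 95.1% against 47.0% and 45.2% in ATV-CD98hc mice.

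Genes that astrocytes express at higher levels were among the largest falls. Of 759 genes at least 5 times higher in astrocytes than in endothelial cells and microglia and higher there than in the chosen cells, 210 fell and 65 rose in ATV-TfR mice, 251 fell and 94 rose in ATV-CD98hc mice, and 224 fell and 26 rose under control IgG. Beside these, 10.1%, 15.3% and 4.61% of all genes fell and 11.1%, 16.3% and 3.4% rose, so the rises of this class lay near or below the background. Its genes made up a minority of all falls, and the genes named next are of this class. In ATV-TfR mice they included Nnat, Gpr37l1, Gpm6b, Fabp5 and Pcdh9. In ATV-CD98hc mice they included Grm3 (at least 49.9-fold lower), Ntsr2 (at least 26.1-fold), Mdga2, Lsamp and Slc6a11. Under control IgG the 8 leaders Gpc5 (at least 128-fold lower), Slc4a4 (82.4-fold), Mdga2, Lrrc4c, Kirrel3, Slc6a11, Grm3 and Bcan (29.9-fold) had no UMI in either high library. Astrocyte marker RNA summed to 445 and 481 CPM in the negative and 300.3 and 253 CPM in the high libraries of ATV-TfR mice, 421 and 494 against 233 and 288 in ATV-CD98hc mice, and 1003 against 184 and 134 under control IgG. Its highest values were in the low libraries of the ATV mice (1254 to 1801 CPM). All 7 oligodendrocyte markers outside the rule fell in all 3 treatments. They summed with Mog to 1053 and 284 CPM in the negative and 19.4 and 14.2 CPM in the high libraries of ATV-TfR mice. Of the markers of fenestrated endothelium, Esm1 and Gpihbp1 were at 0 in the negative and high libraries of all treatments, and Plvap was at 0 to 32.2 CPM.

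Genes that the epithelium expresses far above endothelial cells, astrocytes and microglia moved both ways, with more rises than falls in each treatment. These choroid plexus genes were defined, after the data had been seen, as those at least 10 times higher in the chosen cells than in each of endothelial cells, astrocytes and microglia. Of 246 such genes tested, 65 rose and 42 fell in ATV-TfR mice, 85 rose and 48 fell in ATV-CD98hc mice, and 39 rose and 3 fell in control IgG mice, beside 11.1%, 16.3% and 3.4% of all genes that rose and 10.1%, 15.3% and 4.61% that fell. In all 3 contrasts 30 rose and 1 fell. Of the 246, 88 were also at least 10 times higher than in ependymal cells, and of these 38 rose and 8 fell in ATV-TfR mice, 37 and 14 in ATV-CD98hc mice, and 17 and 2 in control IgG mice. In all 3 contrasts 15 of the 88 rose and none fell. The 3 contrasts share no library. Over all genes, 266 rose in all 3, which is 18.6% of the ATV-TfR, 12.7% of the ATV-CD98hc and 60.9% of the control IgG list. A further 311 fell in all 3 (24.0%, 15.8% and 52.4%). Between the ATV treatments alone 1073 genes rose in both (74.9% and 51.2%). Of genes that rose in both ATV treatments, 35 fell under control IgG. Gene length moved with these calls. From first to last base in the RefSeq gene table, the choroid plexus genes that rose had a median of 57.7, 68.2 and 124 kb and those that fell 14.5, 10.3 and 29.0 kb, against 25.3 kb over the 246. Over all genes tested the median was 25.7 kb, at 61.9, 61.9 and 107 kb for those that rose, at 18.3 and 12.7 kb for those that fell in ATV-TfR and ATV-CD98hc mice, and at 40.3 kb, above that median, for those that fell under control IgG. The part of gene length in the calls was not tested, and the lower share of ribosomal protein RNA in the high bins of the ATV mice is given beside the ferritins.

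Among the choroid plexus genes that rose in all 3, the 8 with the largest mean change were Cdh18, Fras1, Frmpd4, Wfikkn2, Cldn1, Lmx1a, Gmnc and Col8a1. Frmpd4, a scaffold protein, was at 214 and 181 CPM in the negative and 567 and 677 CPM in the high libraries of ATV-TfR mice. It was at 249 and 191 against 965 and 813 CPM in ATV-CD98hc mice, and at 93.2 against 619 and 733 CPM under control IgG. No high library overlapped a negative one, and the change was 1.79, 1.94 and 2.77 in that order (adjusted p = 1.71e-06, 6.72e-07 and 7.27e-07). Fras1, an extracellular matrix protein of epithelial basement membranes, rose by 2.13, 2.08 and 2.93. Gmnc, a regulator of multiciliated cell formation, rose by 1.38, 1.81 and 2.33, and Col8a1, a collagen chain, by 1.88, 1.61 and 1.89. Cdh18, a cadherin, rose by 2.21 and 1.69 in the ATV mice and from 1.59 CPM to 61.2 and 75.7 CPM under control IgG, where the negative library held only 2 UMIs of it. Endothelial cells held 2.59 CPM or less of each of these 8 genes. The gene that fell in all 3 was Capsl, by 1.24, 1.09 and 0.90 on the log2 scale, and with the replicate as a block the last did not pass (adjusted p = 0.0552). Ependymal cells held 270 CPM of Capsl, above every library of the chosen cells (58.0 to 178 CPM).

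Ion and water transport, the machinery of fluid secretion, shifted mostly upward. Of 16 genes on the list, 12 rose and none fell in ATV-TfR mice, 11 rose and 1 fell in ATV-CD98hc mice, and 4 rose and 1 fell in control IgG mice. Of all genes tested, 11.1%, 16.3% and 3.4% rose and 10.1%, 15.3% and 4.61% fell. The list's median change was 0.76, 0.93 and 0.49, against 0.01, 0.09 and -0.03 over all genes tested. Slc4a10, the sodium bicarbonate transporter of the basolateral membrane, was at 225 and 231 CPM in the negative and 537 and 670 CPM in the high libraries of ATV-TfR mice. In ATV-CD98hc mice it was at 216 and 198 against 796 and 661 CPM, and under control IgG at 199.96 against 516 and 616 CPM. The high libraries lay above the negative ones in every treatment, by 1.54 (SE 0.18, adjusted p = 7.42e-07), 1.77 (SE 0.19, adjusted p = 1.65e-07) and 1.42 (SE 0.24, adjusted p = 0.000154).

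Slc12a2, the sodium-potassium-chloride cotransporter NKCC1, rose from 307 and 306 CPM to 652 and 808 CPM in ATV-TfR mice and from 347 and 333 to 779 and 769 CPM in ATV-CD98hc mice. Under control IgG it rose from 304 to 548 and 631 CPM (log2 change 0.87, SE 0.20, adjusted p = 0.00599). Slc4a5, a bicarbonate transporter of the apical membrane, rose by 1.14, 1.33 and 1.06, and Trpv4, a calcium-permeable channel, by 1.16, 1.14 and 1.52. These 4 genes were the ones that passed in all 3 treatments. The sodium pump subunit Atp1b1 rose by 0.83 in ATV-TfR mice and by 0.74 in ATV-CD98hc mice, and its change under control IgG (0.13) did not pass. Aqp1, the apical water channel, rose by 0.84 and 1.10 in the ATV mice, and was 0.50 higher without passing under control IgG (adjusted p = 0.375). Car2, the cytosolic carbonic anhydrase, fell by 0.83 in ATV-CD98hc mice.

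Slc4a10, Slc12a2 and Trpv4 also rose in all 3 treatments in cells with little endothelial RNA, while others did not pass there in ATV-TfR mice. In cells with at most 2 endothelial UMIs, compared in libraries with at least 10 such cells, Slc4a10 was higher by 1.61, 2.05 and 1.49, Slc12a2 by 1.21, 1.37 and 0.93 and Trpv4 by 1.29, 1.31 and 1.57 (adjusted p at most 0.0310 in each). In ATV-TfR mice Slc4a5 (0.77), Atp1b1 (0.42) and Aqp1 (0.76) then did not pass (adjusted p = 0.164, 0.223 and 0.270), while in ATV-CD98hc mice all 3 passed, at 1.51, 0.88 and 1.39. The count of the list was then 3 rises in ATV-TfR mice, where the high libraries held only 19 and 15 such cells, 12 rises and 1 fall in ATV-CD98hc mice, and 4 and 1 under control IgG. Over all 12186 genes tested in these cells, 1.27% rose and 1.65% fell in ATV-TfR mice, 8.27% and 11.5% in ATV-CD98hc mice, and 2.05% and 3.66% under control IgG. Among cells of 5000 to 15000 UMIs, Slc4a10 was higher by 2.26, 3.24 and 1.65, and the list counted 9 rises and 1 fall, 11 and 1, and 3 and 1, where over all genes 6.21% rose and 7.6% fell, 16.3% and 17.8%, and 2.35% and 3.78%. The depth window left only 16 and 17 cells in the ATV-TfR high libraries and 18 in control IgG high replicate 1, where at least 10 were asked for. Of 2680 genes called in all chosen ATV-TfR cells and fitted in the window, 52 had the opposite sign there. Both repeats were added after the main results were seen.

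The step was not even along the bins of the ATV mice. Slc4a10 was at 110 and 139 CPM in the low libraries of ATV-TfR mice and at 116 and 163 CPM in those of ATV-CD98hc mice, below all 4 negative libraries of these mice. Slc12a2 (168 and 220, 215 and 248 CPM) and Frmpd4 (82.6 and 73.0, 74.1 and 124 CPM) were also lowest in the low bin. Under control IgG there was no such dip, Slc4a10 being at 359 and 341 CPM in the low and 562 and 564 CPM in the medium libraries. Fitted as a straight slope over the 4 bins, 622 of 12043 genes rose (5.16%) and 366 fell (3.04%) in ATV-TfR mice, 8.2% in all, and 1818 rose (15.1%) and 1796 fell (14.9%) in ATV-CD98hc mice, 30% in all (1580 rose and 2111 fell by DESeq2). In ATV-TfR mice the balance turned in other sets of cells. With at least 50 cells per library, which drops ATV-TfR high replicate 1, 100 rose and 198 fell. With at most 2 endothelial UMIs per cell both ATV-TfR high libraries fell short of the 20 cells asked for, so that this fit ran from the negative to the medium bin, and 3 rose and 184 fell, 47 genes that were called over the 4 bins having the opposite sign. In ATV-CD98hc mice, with all 4 bins, 855 rose and 475 fell in such cells. In the fit over the 4 bins of all chosen cells, 5 of the transport list rose in ATV-TfR mice, and 11 rose and 1 fell in ATV-CD98hc mice. With ATV-TfR replicate 1 or 2 left out, the slope in these mice called 6 and 137 genes, and with ATV-CD98hc replicate 1 or 2 left out, the slope there called 351 and 135.

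**Figure D3:**
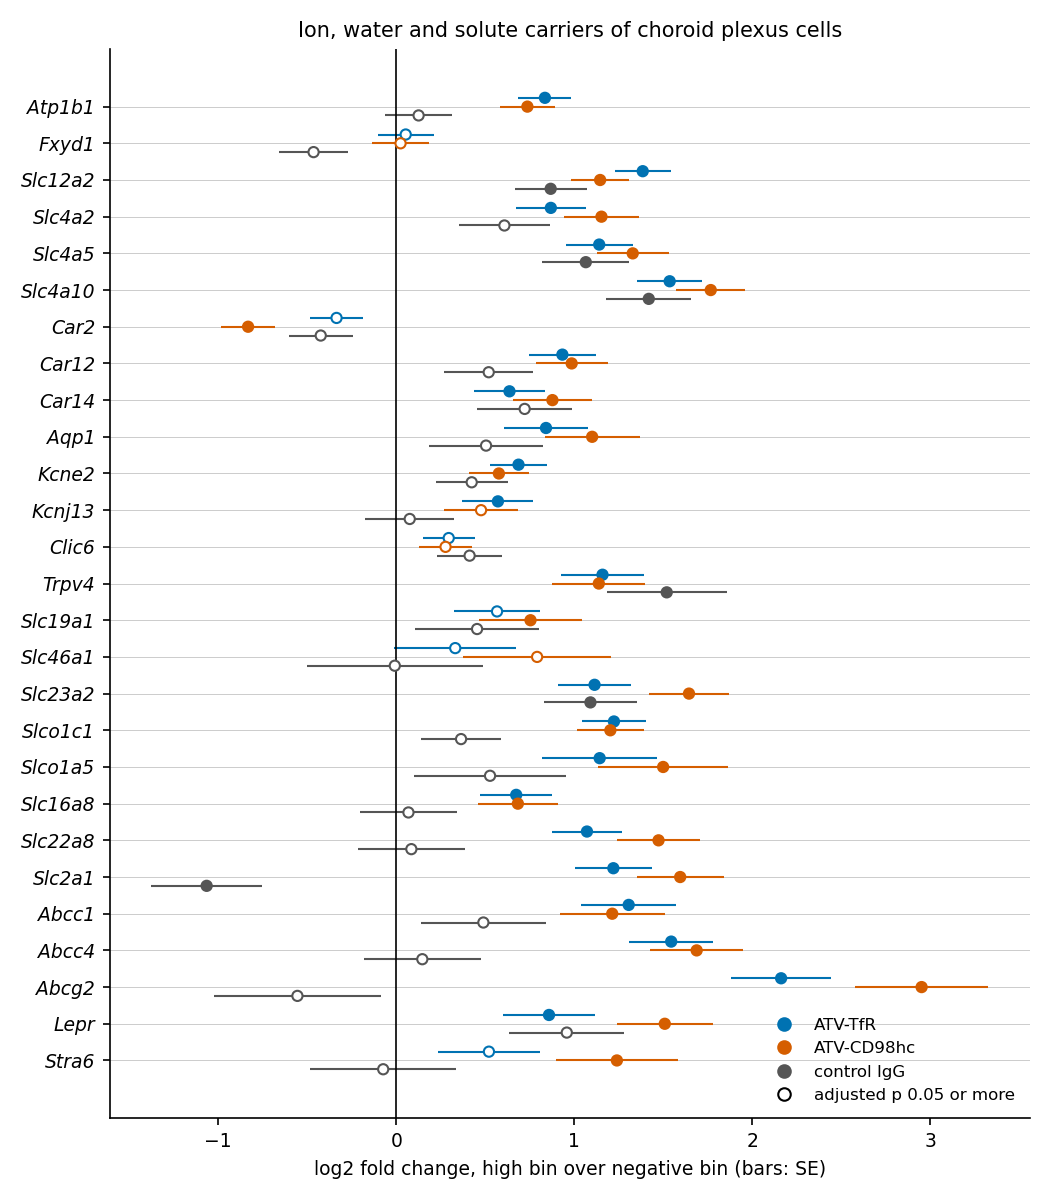
Log2 fold change of the high over the negative bin (bars, SE) for genes of ion, water and solute transport in choroid plexus epithelial cells, by treatment, with filled symbols for adjusted p below 0.05 (edgeR). Slc4a10, Slc12a2, Slc4a5 and Trpv4 are filled to the right of 0 in all 3 treatments, whereas Slc2a1 and Abcg2 are filled to the right of 0 in the ATV mice, and under control IgG Slc2a1 is filled to the left and Abcg2 is open. Some genes of the lists are not drawn.

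**Figure D4:**
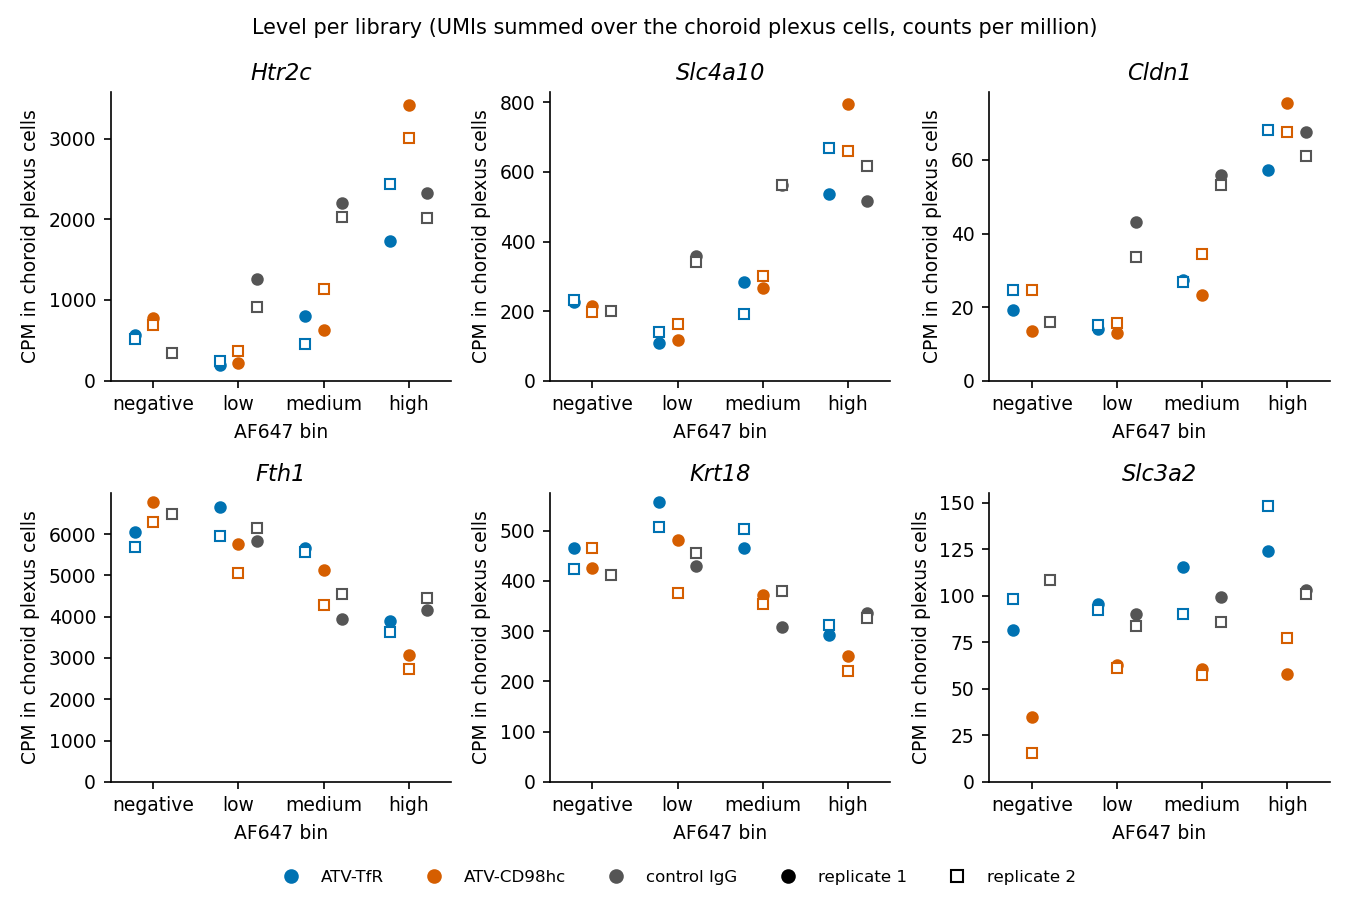
CPM of 6 genes in the summed choroid plexus epithelial cells of each library, by AF647 bin (colours for treatments, filled and open symbols for replicates 1 and 2). Htr2c, Slc4a10 and Cldn1 dip in the low bin of the ATV mice and are highest in their high bin, Fth1 and Krt18 are lowest there, and Slc3a2 is lowest in the negative bin of ATV-CD98hc mice.

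The rule genes followed no single direction. Htr2c was at 560 and 510 CPM in the negative, 195 and 237 in the low, 802 and 453 in the medium and 1737 and 2435 CPM in the high libraries of ATV-TfR mice. The ATV-CD98hc libraries held 773 and 689, 220 and 372, 632 and 1131, and 3418 and 3010 CPM. Under control IgG it was at 346 CPM in the negative library and at 918 to 2330 CPM in the 6 others. Its high libraries lay above all other libraries of the same treatment in the ATV mice. Prlr, the prolactin receptor, had 1250 and 1489 CPM in the high against 524 and 838 CPM in the negative libraries of ATV-TfR mice, and 1270 and 1373 against 546 and 531 CPM in ATV-CD98hc mice. Kl had 1079 and 1146 against 780 and 890 CPM in ATV-TfR mice, and 1270 and 1354 against 808 and 704 CPM in ATV-CD98hc mice. Calml4 went the other way, with 634 and 599.99 CPM in the high against 1076 and 1032 CPM in the negative libraries of ATV-TfR mice and 553 and 503 against 1124 and 1315 CPM in ATV-CD98hc mice. Folr1, the folate receptor of the epithelium, had fitted differences of 0.28, 0.15 and -0.17, the smallest of the 8. With every cell thinned to 3000 UMIs, which 512 cells did not reach, Calml4 had a UMI in 93.3% and 89.7% of negative and 81.8% and 75% of high ATV-TfR cells. Since these genes chose the cells, the values are a description.

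Carriers of vitamins, hormones and drugs, with their receptors, rose in the ATV mice on most members of the list. Of 15 tested outside the rule, 12 rose in ATV-TfR mice and 14 in ATV-CD98hc mice with none falling, and 2 rose and 2 fell under control IgG. Over all genes 11.1% rose in ATV-TfR mice and 16.3% in ATV-CD98hc mice, and 3.4% rose and 4.61% fell under control IgG. The list's medians were 1.14, 1.47 and 0.15. Slc23a2, the vitamin C transporter SVCT2, rose by 1.11, 1.64 and 1.09 (adjusted p = 0.000249, 2.98e-06 and 0.00761), from 90.1 and 103 CPM to 163 and 215 CPM in ATV-TfR mice. It was one of the 2 that rose in all 3 treatments, and it was also higher in all 3 in the cells with at most 2 endothelial UMIs, by 1.26, 1.83 and 1.15.

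Other members of this list were at higher levels in endothelial cells than in the chosen cells, Abcb1a, Slc2a1 and Slc22a8 among them. Whether their changes differ between the ATV treatments and control IgG was not tested. Abcb1a, the P-glycoprotein pump of the blood-brain barrier, had no UMI in the negative libraries of either ATV treatment and 45.4 to 96.7 CPM in the high ones. Under control IgG it had 15.1 CPM in the negative and no UMI in the high libraries. Slc2a1, the glucose transporter GLUT1, rose by 1.22 and 1.59 in the ATV mice and fell by 1.07 under control IgG (adjusted p = 0.0300). Slc22a8, an organic anion transporter, rose by 1.07 and 1.47 in the ATV mice and was 0.08 higher without passing under control IgG. With at most 2 endothelial UMIs per cell, 4 of 14 list members rose in ATV-TfR mice, 10 in ATV-CD98hc mice and 2 under control IgG, and none fell. In such cells 1.27%, 8.27% and 2.05% of all genes rose and 1.65%, 11.5% and 3.66% fell.

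Among the secreted proteins, Enpp2, F5 and Vegfa rose in both ATV treatments. Of 12 tested outside the rule, 4 rose in ATV-TfR mice, 6 rose and 1 fell in ATV-CD98hc mice, and none was called under control IgG by edgeR, where over all genes 11.1%, 16.3% and 3.4% rose and 10.1%, 15.3% and 4.61% fell. Ttr was at 159519 and 195879 CPM in the negative and 258001 and 239482 CPM in the high libraries of ATV-TfR mice, a rise of 0.62 (SE 0.15, adjusted p = 0.00323). In ATV-CD98hc mice it was at 170929 and 173009 against 201740 and 229962 CPM without passing (0.29, adjusted p = 0.131), and under control IgG at 161729 against 171153 and 190991 CPM (0.06, adjusted p = 0.884). In the repeats Ttr stood otherwise. In cells with at most 2 endothelial UMIs it was 0.22 higher in ATV-TfR mice without passing (adjusted p = 0.502) and 0.63 higher in ATV-CD98hc mice (adjusted p = 0.00505). At 5000 to 15000 UMIs it was 0.09 higher without passing (adjusted p = 0.773) and 0.51 higher (adjusted p = 0.0189). The change did not differ between the ATV treatments in edgeR past the threshold (adjusted p = 0.659). Enpp2, autotaxin, rose by 0.78 and 0.90 in the ATV mice, from 11088 and 13286 CPM to 18044 and 20340 CPM in ATV-TfR mice. F5, coagulation factor V, rose by 0.62 and 0.65 and Vegfa, the endothelial growth factor, by 0.96 and 0.84. Igf2, a growth factor of the cerebrospinal fluid, rose by 0.91 in ATV-CD98hc mice. Among cells with few endothelial UMIs (at most 2), none of the 12 was called in ATV-TfR mice (median 0.08), 7 rose and 1 fell in ATV-CD98hc mice, and none was called under control IgG. Of all genes there, 1.27%, 8.27% and 2.05% rose and 1.65%, 11.5% and 3.66% fell. At 5000 to 15000 UMIs the counts were 3 rises and 1 fall, 8 and 1, and no rise and 1 fall. In that window 6.21%, 16.3% and 2.35% of all genes rose and 7.6%, 17.8% and 3.78% fell.

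Several tight junction genes of the epithelium rose. Cldn1, a claudin of the blood-cerebrospinal fluid barrier, rose in all 3 treatments, from 19.3 and 24.6 to 57.2 and 68.0 CPM in ATV-TfR mice, from 13.5 and 24.7 to 75.4 and 67.7 CPM in ATV-CD98hc mice and from 15.9 to 67.7 and 61.1 CPM under control IgG. Cldn2, which forms a cation and water pore, rose by 0.90 and 1.18 in the ATV mice, and Ocln, occludin, by 0.83 and 1.41. Krt18, an intermediate filament of simple epithelia, fell by 0.42 in ATV-TfR mice (adjusted p = 0.0476) and by 0.95 in ATV-CD98hc mice, with 465 and 423 against 293 and 313 CPM in the former. Of the 12 junction and keratin genes, 6 rose and 1 fell, 5 rose and 2 fell, and 1 rose and 1 fell in the order of treatments. With 11.1%, 16.3% and 3.4% of all genes rising and 10.1%, 15.3% and 4.61% falling, the falls on this list lie near the background. In cells limited to 2 endothelial UMIs, none of 10 tested was called in ATV-TfR mice, where Cldn1 was 1.06, Cldn2 0.16 and Ocln 0.23 higher (adjusted p = 0.297, 0.834 and 0.820). In ATV-CD98hc mice 5 of the 10 rose and 2 fell, Cldn1, Cldn2 and Ocln being 2.53, 1.37 and 1.49 higher and passing, and 1 rose under control IgG. Of all genes in such cells, 1.27%, 8.27% and 2.05% rose and 1.65%, 11.5% and 3.66% fell. At 5000 to 15000 UMIs 2 rose in ATV-TfR mice, 6 rose and 2 fell in ATV-CD98hc mice, and 1 rose under control IgG. In that window 6.21%, 16.3% and 2.35% of all genes rose and 7.6%, 17.8% and 3.78% fell.

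Transcription factors and cilia genes split. Lmx1a, a factor of the dorsal midline from which choroid plexus arises, rose by 1.48, 1.67 and 2.37, and Rfx3, a regulator of cilia genes, by 0.97, 1.55 and 1.63. The structural cilia genes Dynlrb2 (1.27 and 1.23), Rsph1 (0.80 and 0.96) and Tekt1 (0.68 and 0.64) fell in both ATV treatments by the log2 values given, and did not pass under control IgG. Of 8 such genes tested, 2 rose and 3 fell, 2 rose and 4 fell, and 2 rose and none fell, beside 11.1%, 16.3% and 3.4% of all genes that rose and 10.1%, 15.3% and 4.61% that fell. The counts in cells with at most 2 endothelial UMIs were 1 and 1, 2 and 3, and 2 and none, where 1.27%, 8.27% and 2.05% of all genes rose and 1.65%, 11.5% and 3.66% fell. Ependymal marker RNA in the chosen cells was 1253 and 949 CPM in the negative and 426 and 506 CPM in the high libraries of ATV-TfR mice, 446 and 476 against 453 and 540 CPM in ATV-CD98hc mice, and 637 against 587 and 683 CPM under control IgG. Its part in the cilia genes was not tested. Otx2, a factor that maintains the choroid plexus, differed by -0.07, -0.05 and 0.31 without passing in any treatment.

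The genes of the antibodies' targets are given beside the endothelial RNA in the same cells. Tfrc, the transferrin receptor, was scarce, with 700 UMIs over all chosen cells. It was at 4.504 and 0.984 CPM in the negative and 11.9 and 21.7 CPM in the high libraries of ATV-TfR mice, a rise of 2.58 (SE 0.56, adjusted p = 0.00153). In ATV-CD98hc mice it was at 7.74 and 0 against 34.0 and 30.4 CPM, a rise of 2.44 (SE 0.50, adjusted p = 0.000471), and under control IgG at 22.3 against 9.67 and 6.64 CPM, without passing (adjusted p = 0.100). In cells with at most 2 endothelial UMIs, Tfrc was 1.14 higher in ATV-TfR mice (adjusted p = 0.702) and 0.01 higher in ATV-CD98hc mice (adjusted p = 1), and did not pass.

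Slc3a2, the CD98 heavy chain, was higher in the high than in the negative libraries of both ATV treatments. It was at 81.7 and 98.4 CPM in the negative and 124 and 148 CPM in the high libraries of ATV-TfR mice. For ATV-CD98hc mice it was at 34.8 and 15.4 against 57.7 and 77.2 CPM, and for control IgG mice at 108 against 103 and 101 CPM. The rise was 0.75 (SE 0.19, adjusted p = 0.00576) in ATV-TfR mice and 1.16 (SE 0.27, adjusted p = 0.00150) in ATV-CD98hc mice. With at most 2 endothelial UMIs per cell it was 0.14 in ATV-TfR mice (adjusted p = 0.857) and 0.89 in ATV-CD98hc mice (adjusted p = 0.0477). Slc7a5, the light chain LAT1 that is abundant in brain endothelium, was at 6.43 and 9.84 against 54.0 and 64.3 CPM in ATV-TfR mice and at 0.967 and 0 against 83.3 and 87.3 CPM in ATV-CD98hc mice. Slc7a8, the light chain LAT2, rose in all 3 treatments by 1.03, 1.43 and 1.17, the last without passing when the replicate was a block (adjusted p = 0.0698). Restricted to cells with at most 2 endothelial UMIs, it was 1.07, 1.78 and 1.55 higher and passed in ATV-CD98hc mice alone (adjusted p = 0.297, 0.000694 and 0.0729). Of the 7 genes of CD98hc and its light chains, 4 rose and 1 fell in each ATV treatment, and 1 rose and 2 fell under control IgG, beside 11.1%, 16.3% and 3.4% of all genes that rose and 10.1%, 15.3% and 4.61% that fell. Among the restricted cells 4 of 6 of these genes rose and 1 fell in ATV-CD98hc mice, 1 fell under control IgG and none was called in ATV-TfR mice by edgeR, where 8.27% of all genes rose and 11.5% fell in ATV-CD98hc mice and 3.66% fell under control IgG.

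**Figure D5:**
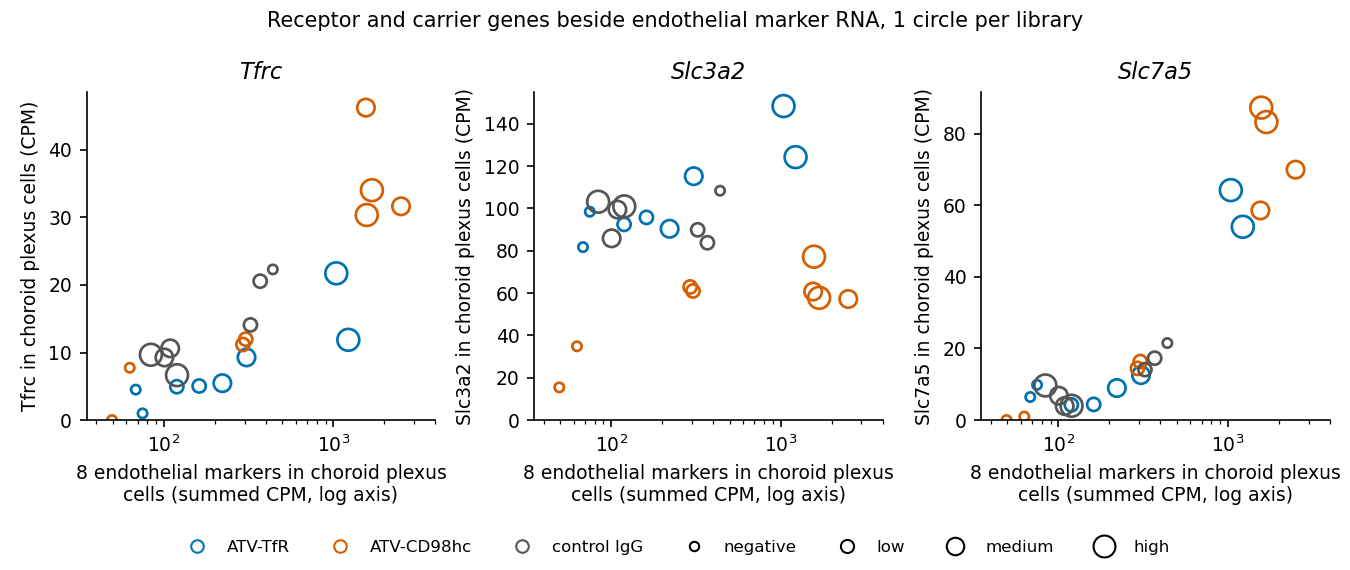
CPM of Tfrc, Slc3a2 and Slc7a5 in the choroid plexus epithelial cells of each library against the summed CPM of 8 endothelial markers in the same cells (log axis), with 1 circle per library, larger for brighter bins and coloured by treatment. Slc7a5 is highest, at 54.0 to 87.3 CPM, in libraries with over 1000 CPM of endothelial markers, and Slc3a2 is below 80 CPM in every library of ATV-CD98hc mice.

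Among genes of iron handling, Fth1, the ferritin heavy chain that stores iron, fell in every treatment. It was at 6056 and 5677 CPM in the negative and 3905 and 3627 CPM in the high libraries of ATV-TfR mice, at 6787 and 6293 against 3076 and 2739 CPM in ATV-CD98hc mice and at 6494 against 4161 and 4459 CPM under control IgG. No high library overlapped a negative one, and Fth1 fell by 0.50, 1.21 and 0.69 (adjusted p = 0.00973, 3.58e-07 and 0.00709). Ftl1, the light chain, fell by 0.97 in ATV-CD98hc mice. The list counted 2 rises and 1 fall, 2 rises and 2 falls, and 1 fall among 12 genes, and with at most 2 endothelial UMIs per cell no rise, and 1, 2 and 1 falls. In such cells 1.65%, 11.5% and 3.66% of all genes fell. Over all genes 11.1% rose and 10.1% fell in ATV-TfR mice, 16.3% and 15.3% in ATV-CD98hc mice, and 3.4% and 4.61% under control IgG, so that a count this small on 12 genes lies near the background. The other rise was Slc40a1, the iron exporter ferroportin, at 3.22 and 0.984 against 14.0 and 9.45 CPM in ATV-TfR mice. Trf, transferrin itself, differed by 0.06, -0.13 and -0.27 without passing. In ATV-CD98hc mice both ferritins fell beside 64 of 80 ribosomal protein genes. In ATV-TfR mice 6 of the 80 fell, where 10.1% of all genes fell, and under control IgG none did, although Fth1 fell in both. Ribosomal protein genes took 5.71% and 5.73% of UMIs in the negative and 4.20% and 4.60% in the high libraries of ATV-TfR mice. They took 6.25% and 6.51% against 4.19% and 4.11% in ATV-CD98hc mice and 5.80% against 5.42% and 5.63% under control IgG.

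Genes of antibody binding and endocytosis rose on 5 of 15 with 1 fall in ATV-TfR mice, on 8 with 1 fall in ATV-CD98hc mice and on 1 with 1 fall under control IgG. Of all genes, 11.1%, 16.3% and 3.4% rose and 10.1%, 15.3% and 4.61% fell. Fcgrt, the neonatal Fc receptor that recycles IgG, was at 47.6 and 38.4 against 89.6 and 65.2 CPM in ATV-TfR mice (0.96, adjusted p = 0.00887) and at 31.9 and 37.1 against 54.1 and 93.6 CPM in ATV-CD98hc mice (1.12, adjusted p = 0.00542). With at most 2 endothelial UMIs per cell it did not pass and its sign turned in ATV-TfR mice (-0.92, adjusted p = 0.371). The list then had 1 rise in ATV-TfR mice, 5 rises and 1 fall in ATV-CD98hc mice and 2 rises under control IgG, where 1.27%, 8.27% and 2.05% of all genes rose and 11.5% fell in ATV-CD98hc mice. Lrp8, a lipoprotein receptor, rose in all 3 by 1.28, 1.93 and 1.86, and Igf1r, the IGF1 receptor, by 1.84 and 1.97 in the ATV mice. Clathrin heavy chain (Cltc) and Rab5a, parts of the uptake machinery, differed by at most 0.23 in size without passing in any treatment.

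Interferon and antigen presentation genes rose on 3 of 11 in ATV-TfR mice and 7 of 11 in ATV-CD98hc mice, and none was called under control IgG by edgeR, beside 11.1%, 16.3% and 3.4% of all genes that rose. H2-D1, a class I histocompatibility gene, was at 23.8 and 24.6 against 74.5 and 52.9 CPM in ATV-TfR mice and at 15.5 and 9.26 against 86.3 and 77.8 CPM in ATV-CD98hc mice. In cells with at most 2 endothelial UMIs, none of 8 tested was called in ATV-TfR mice (median -0.80), 1 rose in ATV-CD98hc mice and none was called under control IgG, where 1.27%, 8.27% and 2.05% of all genes rose. H2-D1 was then 0.20 and 1.09 higher in the ATV mice and did not pass (adjusted p = 0.909 and 0.158). Of 10 immediate early and heat shock genes, Hsp90aa1, a chaperone, fell by 0.44 and 0.45 in the ATV mice. Fos, an immediate early factor, was called higher under control IgG, at 0 CPM in the negative and 67.7 and 10.6 CPM in the high libraries, the larger value from the library of 28 cells. In patterning genes, 5 of 10 were expressed enough to test, and Meis2 fell in both ATV treatments, where 10.1% and 15.3% of all genes fell. With at most 2 endothelial UMIs per cell none of the 5 was called in ATV-TfR mice and 1 fell in ATV-CD98hc mice. Of all genes, 1.65% and 11.5% fell there.

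The change from the negative to the high bin was then compared between ATV treatments. In this test 1 of 12856 genes passed (0.00778%, edgeR), Cfap54, and 1226 had an unadjusted p below 0.05. DESeq2 called 228, of which 223 were higher and 5 lower in ATV-TfR relative to ATV-CD98hc mice, and edgeR with the replicate as a block called 14. No gene of the transport, carrier, secretion, junction or iron lists passed in edgeR, which does not show that the treatments acted alike.

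Finally, all chosen cells of a pool were summed over bins and compared between treatments, 2 pools against 2. Against control IgG, ATV-TfR mice had 631 genes higher (4.66% of 13534) and 424 lower (3.13%), 7.8% in all. ATV-CD98hc mice had 820 higher (6.06%) and 91 lower (0.672%), 6.73% in all. In the negative bins alone, where control IgG has 1 library, most of these genes turned sign. Of the called genes that could be fitted there, 586 of 871 had the opposite sign in ATV-TfR mice and 510 of 628 in ATV-CD98hc mice. Most of the leading rises were astrocyte genes. Of the 631, 383 were genes at least 5 times higher in astrocytes than in endothelial cells and microglia, and of the 820, 321 were such genes and 171 endothelial ones. Bcan, an astrocyte proteoglycan, was at 81.0 and 88.8 CPM in ATV-TfR pools and 0 and 15.2 CPM in control IgG pools. In the negative bins alone its difference was -1.65, of the opposite sign. Astrocyte marker RNA under control IgG was highest in its one negative library (1003 CPM), and control IgG replicate 1 entered without a negative library. The contrasts share the control pools. Without ATV-TfR replicate 1 or 2 the first contrast called 84 and 164 genes, and without control IgG replicate 1 it called 664. The second called 298 and 236 without ATV-CD98hc replicate 1 or 2, and 582 and 604 without ATV-TfR replicate 1 or 2, which only add to the estimate of spread.

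A minority of the choroid plexus genes was lower in the ATV pools, with 44 of 246 lower and none higher in ATV-TfR and 15 lower and none higher in ATV-CD98hc mice (3.13% and 0.672% of all genes were lower). Few of these falls were called from 1 ATV pool. Without ATV-TfR replicate 1 or 2, 0 and 2 of the 246 were lower in ATV-TfR mice, and 5 and 10 of all genes. Without ATV-CD98hc replicate 1 or 2, 3 and 0 of the 246 were lower in ATV-CD98hc mice, and 15 and 4 of all genes. With control IgG replicate 1 or 2 left out they were 26 and 60 in ATV-TfR and 5 and 26 in ATV-CD98hc mice, where 5 were also left without ATV-TfR replicate 1 or 2. Fras1 was at 69.98 and 75.8 CPM in ATV-TfR pools against 228 and 147 CPM in control IgG pools. Fras1, Ror1, Cgnl1, Grm8, Shank2, Col4a3, Etl4 and Frem1 led the falls in ATV-TfR mice, by 1.12 to 1.33 on the log2 scale, and all 8 turned sign in the negative bins alone. The low libraries gave the most UMIs in all 6 pools, and Fras1 was at 15.1 to 33.2 CPM in those of the ATV mice and at 187 and 115 CPM in those of control IgG mice. In ATV-CD98hc mice, Casc4 fell by 0.75, with 77.1 and 76.1 against 129 and 126 CPM, and Trf by 0.71, with 446 and 381 against 721 and 615 CPM.

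The target genes differed between the pools. Slc3a2 was at 101 CPM in both ATV-TfR pools and at 58.6 and 61.7 CPM in the ATV-CD98hc pools, a difference of 0.80 (SE 0.10, adjusted p = 0.00935), and it was lower in ATV-CD98hc than in control IgG pools by 0.63 (adjusted p = 0.00764). Every ATV-CD98hc library (15.4 to 77.2 CPM) lay below every ATV-TfR library (81.7 to 148 CPM) and every control IgG library (83.8 to 108 CPM). With bins weighted equally the difference between the ATV treatments was 1.05, and in the negative bins alone 1.63. In cells with at most 2 endothelial UMIs it was 0.82 and did not pass (adjusted p = 0.159), while the difference from control IgG was -0.68 and passed (adjusted p = 0.00590). Without either ATV-TfR or either ATV-CD98hc pool the difference between the ATV treatments was 0.75 to 0.82 and did not pass (adjusted p = 0.0670 to 0.128). Endothelial cells of ATV-CD98hc mice also held less Slc3a2 (93.3 to 356 CPM per library) than those of control IgG mice (356 to 580 CPM). Tfrc was lower in ATV-TfR pools than in control IgG pools by 1.06 (adjusted p = 0.0186) and than in ATV-CD98hc pools by 1.79 (adjusted p = 0.00647). Without ATV-TfR replicate 1 or 2 the first did not pass (adjusted p = 0.142 and 0.0869), and the second did not pass in cells with at most 2 endothelial UMIs (-0.97, adjusted p = 0.414). In endothelial cells Tfrc was at 34.6 to 244 CPM in ATV-TfR mice and at 328 to 599 CPM in control IgG mice. The mice given each antibody also carry a knock-in (mu/hu KI) of the gene it binds, and antibody and allele cannot be told apart. How reads of these alleles count towards the mouse genes was not tested, so the levels of Slc3a2 and Tfrc in the mice that carry them hold with that limit.

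Between the ATV pools 1.16% of genes were called. ATV-TfR mice had 5 higher (0.0369%) and 152 lower (1.12%), and 105 of the 152 were endothelial genes outside the rule. The 152 also include the rule genes Cldn5 and Flt1, from which nothing is read. By DESeq2, 91 were higher and 35 lower, and 14 of its calls were among the 157 of edgeR. With at most 2 endothelial UMIs per cell edgeR called none. With bins weighted equally it called 138 genes as higher and 111 as lower, and in the negative bins alone 34 and 3. With ATV-TfR replicate 1 or 2 left out, edgeR called 0 and 2, without ATV-CD98hc replicate 1 or 2 it called 88 and 15, and without control IgG replicate 1 or 2 it called 390 and 352. Beside Slc3a2, the higher genes were Fdps, an enzyme of the sterol pathway (182 and 162 against 118 and 95.1 CPM), Rdh5, a retinol dehydrogenase (698 and 726 against 502 and 433 CPM), Nt5dc2 and the scarce Clec3b (average log2 CPM 1.17, difference 2.80, adjusted p = 0.0475), which is named outside the rule for the 8 largest changes. Leaving out the rule genes and the scarce genes (average log2 CPM under 5), the largest fall was that of Slc6a6, the taurine transporter, at 25.4 and 16.9 against 79.7 and 111 CPM, followed by the endothelial genes Ly6c1, Cxcl12 and Spock2.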

How the data were processed

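Single-cell suspensions were measured in 23 droplet libraries. The authors deposited UMI counts per gene and barcode (32285 genes, 265025 barcodes). The submitters' processing notes name Cell Ranger 7.1.0, Seurat 4 and 5, and mm10/GRCm38; no annotation release or cell-calling rule is given in the sources used here. No deposited cell annotation was used. Filters, the rule for choroid plexus epithelial cells and the gene lists were chosen with earlier results of these data known.

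UMIs of the chosen cells were summed per library (at least 20 cells) and tested with edgeR 4.0.16 (TMM scaling, filterByExpr, quasi-likelihood, Benjamini-Hochberg adjustment, threshold 0.05) in R 4.3.3, with all libraries in 1 fit, or with 1 sum per pool for treatments. DESeq2 1.42.0 was an alternative. Shares were tested by the slope of their logit (0.5 cells added to each side) on bin number, permuting bin labels exactly with Python 3.11.15 and scipy 1.17.1. Scripts were tested on simulated data. Barcodes marked as doublets by Scrublet (scanpy 1.11.5; its own threshold failed in 8 libraries, where the 94th percentile of scores was used) were kept. Of filtered barcode sequences, 7598 occurred in several libraries. Counts of UMIs set the precision, and binomial intervals cover counting error only.

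Named genes were those of the lists that passed or stand for a role, with Tfrc, Slc3a2, Fcgrt, Ttr and the rule genes always, and for each comparison the 8 called genes with the largest change in each direction (average log2 CPM of at least 5, groups not overlapping, near-identical copies left out). Some genes that meet this rule are not reported here. The bins of a replicate come from the same pool of animals, so replicate numbers pair the libraries of a treatment. Same-numbered libraries deviated together weakly, with a median correlation over 4641 genes of 0.03 for ATV-TfR, 0.08 for ATV-CD98hc and 0.13 for control IgG. Promoters came from RefSeq (GRCm38.p6). Alternatives were other scaling, filters, doublets, few endothelial UMIs, left-out replicates, the replicate block, negative bins alone and, added after seeing the data, equal weight of bins, a depth window, at least 10 cells and shares permuted within pools.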

Additional observations from a re-analysis of the deposited data

Results flagged for a closer look

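Cfap54, a gene of the ciliary axoneme, was the one gene whose change from the negative to the high bin differed between the ATV treatments in edgeR. The change in ATV-TfR mice minus that in ATV-CD98hc mice was -2.07 on the log2 scale (SE 0.36, adjusted p = 0.0446). In ATV-TfR mice Cfap54 was at 71.4 and 79.7 CPM in the negative and 37.8 and 61.4 CPM in the high libraries (change -0.45, adjusted p = 0.159). In ATV-CD98hc mice it was at 30.0 and 15.4 against 90.6 and 72.8 CPM (change 1.62, adjusted p = 5.56e-05), and under control IgG at 44.6 against 87.0 and 83.7 CPM (change 0.83, adjusted p = 0.0864). The high libraries lay below the negative ones in ATV-TfR mice and above them in the other treatments. Ependymal cells held 933 CPM of Cfap54. Ependymal marker RNA in the chosen cells was 1253 and 949 CPM in the negative libraries of ATV-TfR mice and 446 and 476 CPM in those of ATV-CD98hc mice, and its part in the difference was not tested. In cells with at most 2 endothelial UMIs the difference was -3.19 (adjusted p = 0.0176). The call was lost in other settings, as Cfap54 was not among the 228 genes that DESeq2 called and did not pass with RLE factors (-2.02, adjusted p = 0.0578), with at least 50 cells per library (-1.62, adjusted p = 0.389) or at 5000 to 15000 UMIs (-3.09, adjusted p = 0.0607). Nor did it pass without ATV-TfR replicate 1 (difference -1.95) or without ATV-CD98hc replicate 1 or 2 (differences -2.64 and -1.95).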

How the results depend on the processing

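The number of cells limits what can be said of the high bins, which held 28 to 115 choroid plexus epithelial cells per library. With at most 2 endothelial UMIs per cell the ATV-TfR high libraries had 19 and 15 cells, so the fit that asks for 20 cells gave no value for that comparison or for the change difference, and its ATV-TfR slope ran over the negative, low and medium bins alone. Leaving out control IgG replicate 2 removes the only negative library of that treatment and gives no high minus negative value. In no case below was the cause tested.

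The share slopes kept their sign and side of the threshold except as follows. Without endothelial cells in the denominator they were 0.30 (ATV-TfR) and 0.91 (ATV-CD98hc), and the difference between them was -0.61 (p = 0.0216, exact permutation). With the replicate block, which permutes bin labels within each pool, the log2 ratio to ependymal cells in ATV-CD98hc mice (1.12) no longer passed (adjusted p = 0.0729, exact permutation). With at least 3 of the 8 genes the difference was -0.49 (p = 0.0340, exact permutation). For the differences between slopes, treatment labels were permuted within each bin, so the bins of a pool counted as separate units. With 1 replicate left out, the ATV-TfR slope was -0.70 to -0.60, the control IgG slope -0.65 to 0.76, the slope difference -0.51 to -0.40, and the log2 ratio to ependymal cells 1.88 to 1.97 (ATV-TfR), 0.48 to 1.77 (ATV-CD98hc) and -0.95 to 1.86 (control IgG).

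Counts of called genes moved more. High minus negative called 356 genes in ATV-TfR mice with at most 2 endothelial UMIs (at least 10 cells per library) and 1582 at 5000 to 15000 UMIs. In ATV-CD98hc mice it called 2683 at an average log2 CPM of at least 5, and 2442 (2405 with at least 10 cells) with at most 2 endothelial UMIs. In control IgG mice it called 634 at an average log2 CPM of at least 5. Left-out replicates gave 722 to 2963, 1709 to 3948 and 677 to 1120. The slopes called 187 (ATV-TfR, without its high bin) and 1330 (ATV-CD98hc) with at most 2 endothelial UMIs, and 298 in ATV-TfR mice with at least 50 cells per library. Left-out replicates gave 6 to 928 and 135 to 3528. The change difference (1 gene) became 228 with DESeq2, 0 with RLE factors, 61 without a filter, 12 without doublets, 14 with the replicate block, 0 with at least 50 cells, 4 at 5000 to 15000 UMIs, and 0 to 7 with left-out replicates. For the pools, in the order ATV-TfR minus control IgG, ATV-CD98hc minus control IgG and ATV-TfR minus ATV-CD98hc, no filter gave 2162, 1693 and 905, an average log2 CPM of at least 5 gave 505, 151 and 52, and negative bins alone 33, 25 and 37. The replicate block gave 411, 488 and 50, although pools of different treatments share only a number. It moved no other count of calls by over 1.5 times. At most 2 endothelial UMIs gave 1741 in the first and 0 in the third, and equal weight of the bins 547 in the second and 249 in the third. Left-out replicates gave 84 to 1483, 236 to 1228 and 0 to 390.

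Single genes turned sign mainly in the negative bins alone, where control IgG has 1 library. For ATV-TfR minus control IgG the values there were Ntsr2 -1.74, Gria2 -1.11, Bcan -1.65, Ctnnd2 -1.25, Luzp2 -1.37, Gpr37l1 -1.06, Fras1 0.60, Ror1 0.82, Cgnl1 0.58, Grm8 2.46, Shank2 1.16, Col4a3 0.068, Etl4 0.44 and Frem1 0.14. For ATV-CD98hc minus control IgG they were Slc6a11 -1.20, Gria2 -0.94, Bcan -0.93, Ly6c1 -8.50, Agt -2.15, Ntsr2 -1.44, Luzp2 -1.22, Ror1 0.93, Grm8 2.50, Kcnh1 0.72, Syne2 0.22, Lmx1a 0.77, Igfn1 0.24 and Tfrc -1.96. For ATV-TfR minus ATV-CD98hc they were Cxcl12 0.44, Itm2a 0.25, Ly6a 2.09 and Egfl7 0.95. With at most 2 endothelial UMIs, Tfrc turned to -0.22 (ATV-CD98hc minus control IgG), Cxcl12 to -0.028 and -0.0632 (high minus negative, ATV-CD98hc), and Fcgrt to -0.085 (slope without the high bin) and -0.92 (high minus negative, at least 10 cells) in ATV-TfR mice.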
